A study of Nicotiana benthamiana with 28 samples.

Results

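The genes described here are 200 transcripts of Nicotiana benthamiana seedlings with a large mean difference between the replicate libraries of 2 genotypes. They were chosen from these measurements. Of 59814 listed genes, 36777 had a mean of at least 1 TPM over 28 libraries (TPM is a read count divided by transcript length and scaled to the same total in each library), and 28091 of these changed by less than 1 log2 unit after XEG1 in wild type. For each, the replicate 2 level minus the replicate 1 level was taken in rxeg1 and in the Δ90-95/Δ786-792 line, under mock and under XEG1, on the log2(TPM + 1) scale. One sign in all 4 differences was found for 18231 genes, 15345 of them higher in replicate 2 and 2886 lower. The 100 genes with the largest mean difference are called the high set, and the 100 with the lowest the low set.

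RNA was sequenced from 12-day-old seedlings of 7 genotypes, 3 h after XEG1 protein or a mock treatment that the sample titles call EV, with 2 libraries for each genotype and treatment. There were 4 lines labelled as rxeg1 knockouts that carry an RXEG1syn construct behind the RXEG1 promoter, knockouts of rxeg1 and of sobir1/sobir1-like, and wild type. The constructs were RXEG1synΔCT in 2 lines (ΔCT line 1 and ΔCT line 2), RXEG1synΔ90-95/Q786AK791AΔCT and RXEG1synΔ90-95/Δ786-792ΔCT, each of the last 2 as a single line and called here the Δ90-95/Q786AK791A and Δ90-95/Δ786-792 lines. All 4 construct lines share the rxeg1 knockout, and the labels say neither what ΔCT removes nor whether replicates came from separate plants, so p-values measure the spread between these libraries only. Depth is unknown, because TPM keeps none. Identifiers came without gene names, so the knocked-out genes, the constructs and the seedling tissues could not be checked by markers, and no member is given a function.

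As background, XEG1 is a secreted xyloglucan-degrading enzyme of the pathogen Phytophthora sojae. RXEG1 is a cell-surface receptor-like protein that binds it and has no kinase domain of its own, and SOBIR1 is the receptor kinase with which many receptor-like proteins signal. The wild-type cap in the choice of genes keeps the strongest XEG1 targets out of both sets.

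The rule fixes the size of the replicate split in the genotypes it used, so those values are a description. The mean difference of a high-set gene ran from 1.47 to 2.09 log2 units with a median of 1.56, and that of a low-set gene from -2.02 to -0.79 with a median of -1.04. In the replicate pairs of the rule, the median difference of all tested genes was 0.19 to 0.28. Of tested genes 69.3% to 73.0% were higher in replicate 2. The high-set medians by pair were 1.40 to 1.72 and the low-set medians -1.26 to -0.90. With each library divided by the median ratio of its genes to their geometric means, they were 1.19 to 1.46 and -1.58 to -1.13. The high-set split was then not the larger one in every pair. The 100th high-set gene had a mean difference of 1.4691 and the next gene outside 1.4685. The 100th low-set gene had -0.7895 and the next outside -0.7884, so neither set ends at a step in the values. The medians of the split were similar in both genotypes: the median high-set difference was 1.59 in rxeg1 and 1.55 in the Δ90-95/Δ786-792 line, and the median low-set difference was -1.07 and -1.11. One genotype gave more than 75% of the summed difference for 2 high-set and 13 low-set genes. For some members the mean rests mostly on 1 replicate pair. Niben101Scf11245g01004, ranked 9 in the low set and listed at 0 in 1 library, had -5.06 in the Δ90-95/Δ786-792 line after XEG1. Its differences in the other pairs were -0.64 to -0.28.

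The sets differed in abundance. High-set genes were of low to middle level, with a median over genes of 6.77 TPM against 8.78 TPM for all tested genes, and 2 of 100 had a mean above 20 TPM. Low-set genes had a median of 12.4 TPM, 37 of 100 lay above 20 TPM, and the most abundant averaged 985 TPM. Above 20 TPM lay 25.7% of all tested genes. The identifiers showed a further contrast: 14 high-set genes carried a contig (Ctg) and not a scaffold (Scf) number, against 1 low-set gene and 735 of 36777 tested genes. On a scaffold or contig with another member of their set lay 6 high-set genes, on 3 scaffolds, and 16 low-set genes, on 8. The matching count for other sets of 100 tested genes was not computed, so these counts do not show clustering. A level of 0 in at least 1 library was listed for 17 high-set genes, 7 low-set genes and 2.28% of tested genes.

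The level of both sets in a library was summarised as a score, the mean log2(TPM + 1) of the high set minus that of the low set. In rxeg1 it was -0.22 in XEG1 replicate 2 and -0.11 in mock replicate 2, against -2.93 and -2.91 in the replicate 1 libraries. In the Δ90-95/Δ786-792 line it was -0.0013 and -0.34 in replicate 2, against -2.51 and -3.28 in replicate 1. These libraries chose the genes.

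The replicate differences of the remaining 20 libraries took no part in the choice, though wild-type XEG1 and mock means set the cap and all libraries entered the minimum mean level. In the Δ90-95/Q786AK791A line it was -0.30 in XEG1 replicate 2 and -0.35 in mock replicate 2, against -2.0 and -1.76 in replicate 1, so the line showed the same order of its replicates as rxeg1. In ΔCT line 1 it was -0.20 and -0.59 after XEG1 and -0.52 and -0.29 under mock (replicate 2 and 1). In ΔCT line 2 it was -0.40 and -0.46 after XEG1 and -0.40 and -0.67 under mock. All 8 libraries of the ΔCT lines therefore lay near the replicate 2 libraries of rxeg1, whatever their number. In sobir1/sobir1-like it was -2.14 and -2.54 after XEG1 and -2.15 and -2.19 under mock, and in wild type -1.95 and -2.48 after XEG1 and -1.71 and -2.74 under mock. All 8 libraries of these genotypes lay nearer the replicate 1 libraries of rxeg1. No library of the 28 had a score between -1.71 and -0.67, with 14 libraries on each side.

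**Figure D1:**
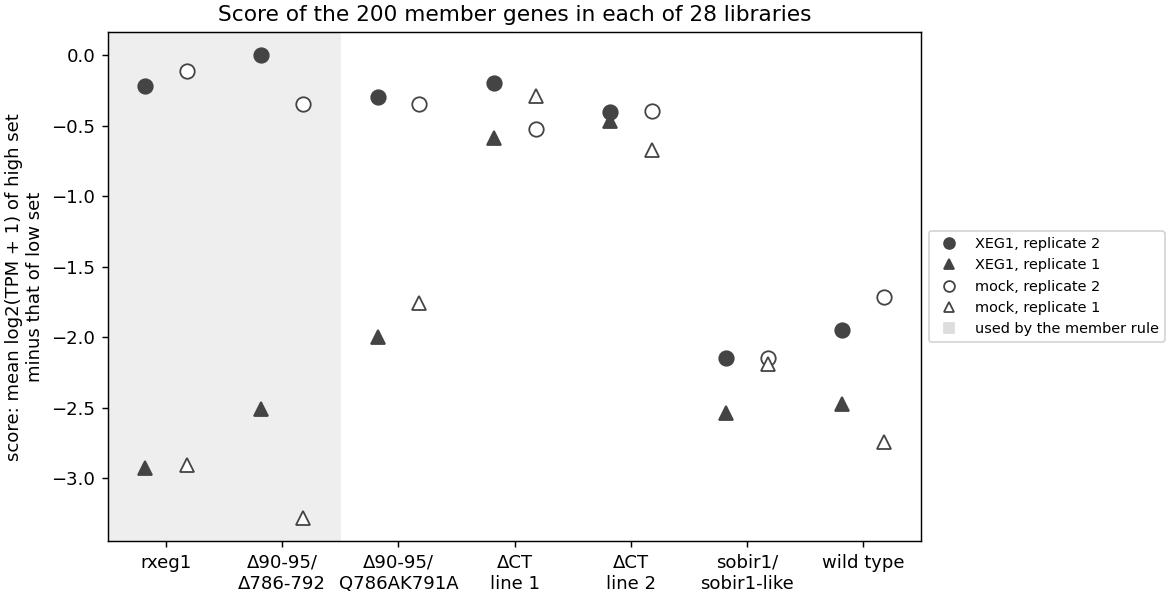
Score of the 200 genes (vertical axis, log2 units: mean log2(TPM + 1) of the high set minus that of the low set) in each library, by genotype. Filled symbols are XEG1 and open symbols mock libraries, circles replicate 2 and triangles replicate 1, and the grey area marks the genotypes whose replicate differences chose the genes. The ΔCT lines lie between -0.67 and -0.20, sobir1/sobir1-like and wild type between -2.74 and -1.71, and the Δ90-95/Q786AK791A line has its replicate 2 libraries above its replicate 1 libraries.

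The summed abundance shows how much RNA was involved. The high set took 1288 and 1286 TPM of a total of 1000000 in the replicate 2 libraries of rxeg1 (XEG1 and mock), against 340 and 399 TPM in replicate 1. The low set took 5057 and 4465 TPM in replicate 2, against 9483 and 10942 TPM in replicate 1. In the ΔCT lines the high set took 958 to 1220 TPM, in sobir1/sobir1-like 418 to 608 TPM and in wild type 392 to 706 TPM, ranges in which the ΔCT libraries did not overlap the others. The low set took 5643 to 7683 TPM in the ΔCT lines, 6677 to 8469 TPM in sobir1/sobir1-like and 5272 to 8261 TPM in wild type, and these ranges overlapped. As a sum it follows its few abundant genes. The median low-set gene separated the same libraries: it held 5.35 to 11.2 TPM in the ΔCT lines, 13.6 to 18.3 TPM in sobir1/sobir1-like and 14.8 to 16.5 TPM in wild type.

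**Figure D2:**
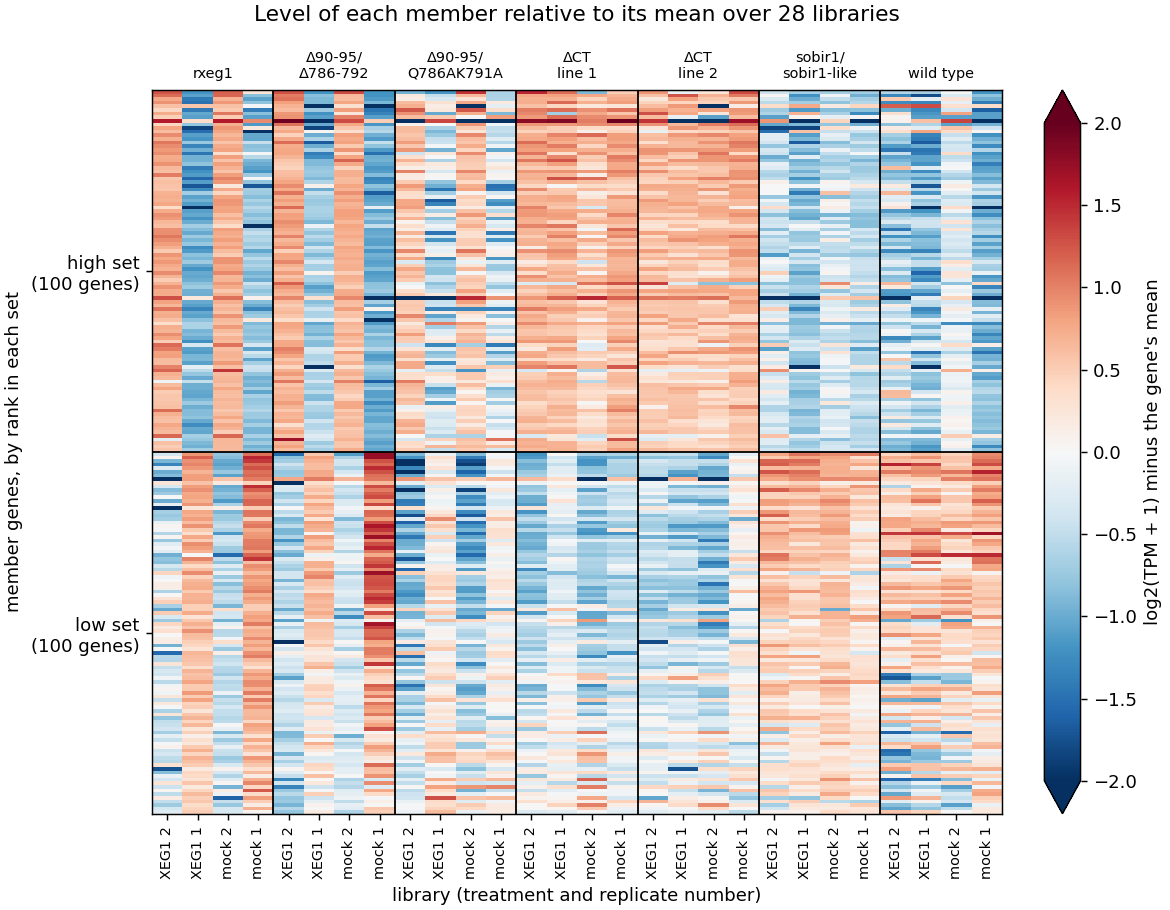
Each row is a member gene and each column a library, grouped by genotype. Colour gives log2(TPM + 1) minus the mean of that gene over the 28 libraries, red above and blue below, cut at 2 log2 units. High-set rows are mostly red and low-set rows mostly blue in the replicate 2 libraries of rxeg1 and in the 8 ΔCT libraries, except that most low-set rows are not blue in mock replicate 1 of ΔCT line 2.

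The gene-level data can be followed in 4 members, the first 2 of each set by the mean replicate difference that were above 0 TPM in all libraries. Niben101Scf07788g00007, of the high set, held 17.8 and 18.3 TPM in the replicate 2 libraries of rxeg1 (XEG1 and mock), against 3.09 and 3.86 TPM in replicate 1. In the ΔCT lines it held 11.9 to 19.5 TPM over 8 libraries. It held 2.72 to 7.91 TPM in sobir1/sobir1-like and 1.52 to 5.98 TPM in wild type, so every ΔCT library was above every library of these genotypes. The difference was tested under mock: 13.0 and 16.6 TPM in ΔCT line 2, against 5.98 and 3.92 TPM in wild type, gave a log2 difference of 1.42 (SE 0.46, limma adjusted p = 0.0492). In ΔCT line 1 the difference of 1.28 missed the threshold (adjusted p = 0.0556).

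Niben101Ctg14200g00001, also of the high set, held 9.71 and 9.35 TPM in replicate 2 of rxeg1, against 1.38 and 2.04 TPM in replicate 1. It held 6.40 to 10.2 TPM in the ΔCT lines and 2.19 to 4.14 TPM in sobir1/sobir1-like. Wild type spanned 2.23 to 8.13 TPM and overlapped the ΔCT lines, with its replicate 2 libraries the higher ones. Members thus differed in how far wild-type replicate 2 followed.

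Niben101Scf01492g01005, the first gene of the low set, held 8.56 and 6.16 TPM in replicate 2 of rxeg1, against 21.8 and 25.5 TPM in replicate 1. It held 4.40 to 11.4 TPM in the ΔCT lines, below the 20.1 to 24.9 TPM of sobir1/sobir1-like and the 15.7 to 22.8 TPM of wild type. Under mock its level fell by 1.35 log2 units in ΔCT line 1 (SE 0.37, limma adjusted p = 0.0185) and by 1.32 in ΔCT line 2 (SE 0.37, adjusted p = 0.0309), both relative to wild type. Niben101Scf39473g00005 held 45.6 and 23.2 TPM in replicate 2 of rxeg1, against 98.5 and 126 TPM in replicate 1, and 17.5 to 43.6 TPM in the ΔCT lines, against 54.3 to 75.1 TPM in sobir1/sobir1-like and 64.4 to 86.2 TPM in wild type. Its ΔCT libraries overlapped neither of those genotypes. Under mock it fell by 1.80 log2 units in ΔCT line 1 (SE 0.52, limma adjusted p = 0.0253), and the difference of -1.39 in ΔCT line 2 missed the threshold (adjusted p = 0.0822).

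**Figure D3:**
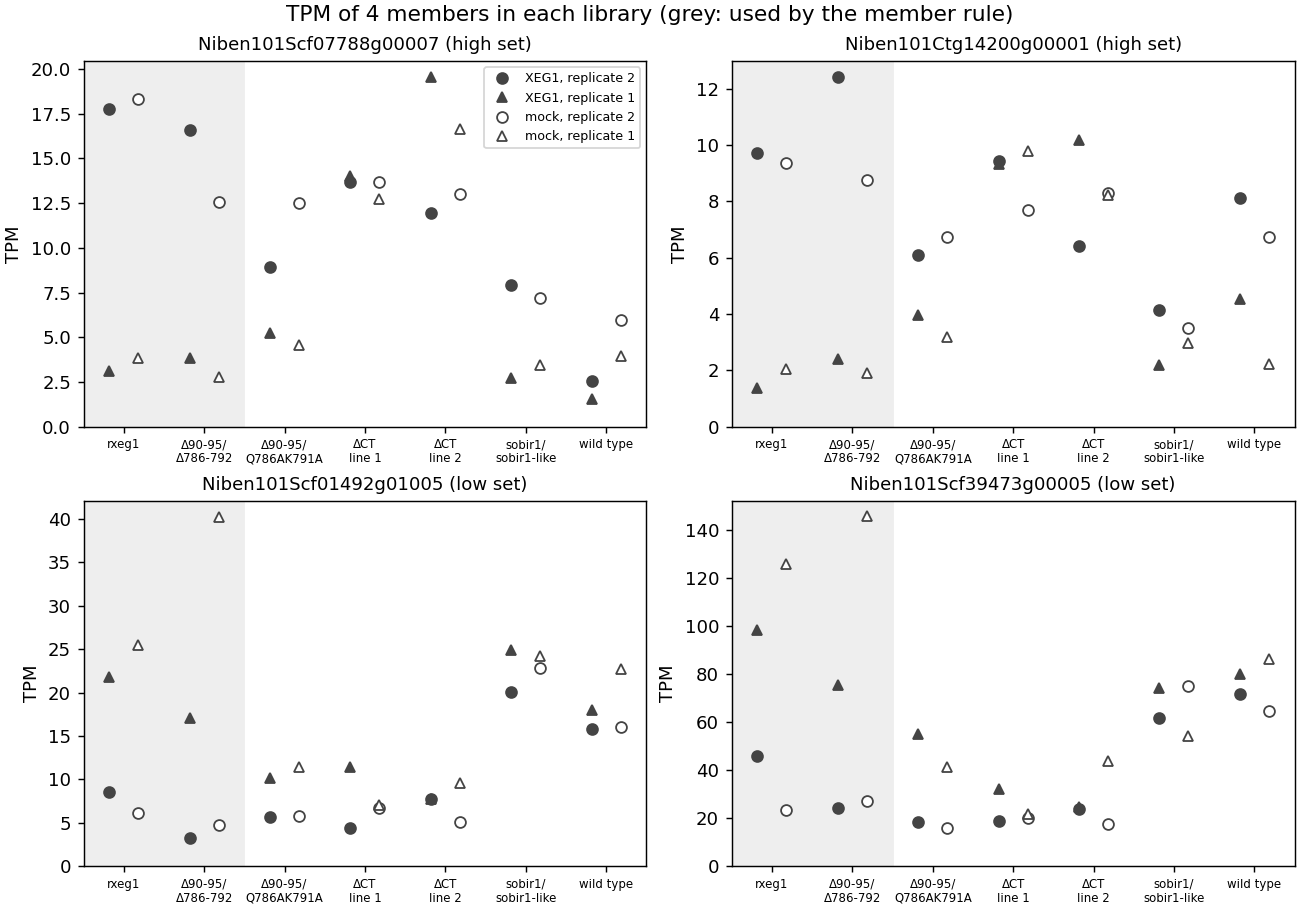
TPM of 4 member genes (vertical axes, from 0) in every library, by genotype. Symbols are as in the plot of scores: filled for XEG1, open for mock, circles for replicate 2, triangles for replicate 1, with the genotypes used by the choice of genes on grey. In rxeg1 the high-set genes of the upper panels reach 17.8 and 9.71 TPM in XEG1 replicate 2, against 3.09 and 1.38 TPM in replicate 1, and the low-set genes of the lower panels are lower in replicate 2.

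Whether the replicate split recurred outside the genotypes that defined it was asked first in the Δ90-95/Q786AK791A line. Its replicate 2 libraries had higher levels than replicate 1 for 49 of 100 high-set genes and lower levels for 48 of 100 low-set genes, with 0 calls in the opposite directions (limma, one replicate term for each genotype, both treatments, adjusted p under 0.05). Over all tested genes 10.4% were called higher and 0.889% lower. The median log2 difference was 0.79 in the high set (range -1.93 to 2.18) and -0.71 in the low set (range -2.39 to 0.30), against 0.12 over all tested genes. A positive estimate was found for 93 high-set and 8 low-set genes. By pair, 70.6% (XEG1) and 58.1% (mock) of all tested genes were higher in replicate 2 of this line. Called either way were 97 members, against 11.3% of all tested genes. This test was chosen after the scores were seen.

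The 4 members plotted by library showed the split in this line to different degrees. Niben101Scf07788g00007 held 8.95 and 12.5 TPM in replicate 2 (XEG1 and mock), against 5.21 and 4.58 TPM in replicate 1 (log2 difference 0.98, SE 0.17, limma adjusted p = 0.00420). Niben101Ctg14200g00001 held 6.08 and 6.74 TPM, against 3.97 and 3.18 TPM (0.70, SE 0.20, adjusted p = 0.0455). Niben101Scf39473g00005 held 18.3 and 15.8 TPM in replicate 2, against 54.8 and 41.1 TPM in replicate 1 (-1.43, SE 0.27, adjusted p = 0.00890). The replicates of all 3 genes did not overlap. Niben101Scf01492g01005 held 5.68 and 5.77 TPM, against 10.2 and 11.4 TPM, and its difference of -0.81 missed the threshold (adjusted p = 0.0580).

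The high-set gene of smallest adjusted p there was Niben101Scf02042g03025. It held 29.3 and 22.5 TPM in replicate 2 (XEG1 and mock), against 6.03 and 6.46 TPM in replicate 1, a log2 difference of 1.88 (SE 0.15, limma adjusted p = 0.000149). Its 8 ΔCT libraries held 24.8 to 29.7 TPM. The low-set gene was Niben101Scf02935g00004, with 2.18 and 2.44 TPM in replicate 2, against 13.5 and 11.0 TPM in replicate 1 (log2 difference -1.99, SE 0.17, adjusted p = 0.000197). Its replicates of this line did not overlap and lay further apart than any pair of wild type.

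With the treatments taken singly, 57 members were called from the XEG1 libraries and 23 from the mock libraries, against 97 from both. Shares over all tested genes are not given for the single treatments, each of which leaves 1 library per replicate. Those counts therefore do not show whether members stood out within a treatment. With both treatments, 92.2% of the calls over all tested genes were higher. The share was 64.9% after each library was divided by the median ratio of its genes to their geometric means (median-ratio scaling). The median difference of tested genes was then -0.05. With that scaling 45 high-set genes were called higher and 51 low-set genes lower, against 2166 higher and 1171 lower of 36777 tested genes. Other properties of the libraries moved with the split. The median tested gene held 9.10 and 8.47 TPM in replicate 2 of this line (XEG1 and mock), against 7.50 and 7.83 TPM in replicate 1, and 36669 and 36223 genes reached 1 TPM, against 35137 and 35319. Their part in the result was not tested.

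In the other genotypes outside the rule the median replicate difference was smaller, and 1 member was called. In wild type 95 high-set genes had a positive estimate, with a set median of 0.48. A negative one was found for 71 low-set genes, with a set median of -0.23. The median over all tested genes was 0.06. By pair, 47.1% (XEG1) and 68.4% (mock) of tested genes were higher in replicate 2 of wild type. Limma called 1 high-set gene, which was 1 of 2 genes (0.00544%) called higher in all, with 57 high-set and 18 low-set genes at an unadjusted p under 0.05 and 4453 of all tested genes. It was Niben101Ctg09972g00002, with 4.66 and 5.04 TPM in replicate 2 (XEG1 and mock) and a listed 0 in both replicate 1 libraries, so no fold is given. The call was lost with median-ratio scaling and without the filter on low genes, each of which called 0 members. In sobir1/sobir1-like the sets did not oppose each other: the median was 0.35 in the high set and 0.15 in the low set, with 75 low-set genes positive. Over all tested genes the median was 0.06. With median-ratio scaling the set medians were 0.29 and 0.08, with 63 low-set genes positive. Limma called 0 members there, against 0.00544% of all tested genes, with 42 high-set, 6 low-set and 3455 of all tested genes at an unadjusted p under 0.05. In ΔCT line 1 the medians were -0.13 and -0.24 and in ΔCT line 2 -0.09 and -0.24, for the high and the low set, against -0.07 and -0.04 over all tested genes. With median-ratio scaling the high-set medians were -0.06 and -0.05 and the low-set medians -0.18 and -0.21. Limma called 0 members in either line, and 0.00272% of all tested genes in line 1 and 0 in line 2. At an unadjusted p under 0.05 were 6 high-set, 26 low-set and 2200 of all tested genes in ΔCT line 1, and 2, 19 and 1204 in ΔCT line 2. Tested directly, the replicate difference of the Δ90-95/Q786AK791A line was more positive than the mean of both ΔCT lines for 49 high-set genes and more negative for 12 low-set genes. Over all tested genes the shares were 5.99% and 0.163%, or 6.15% either way.

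**Figure D4:**
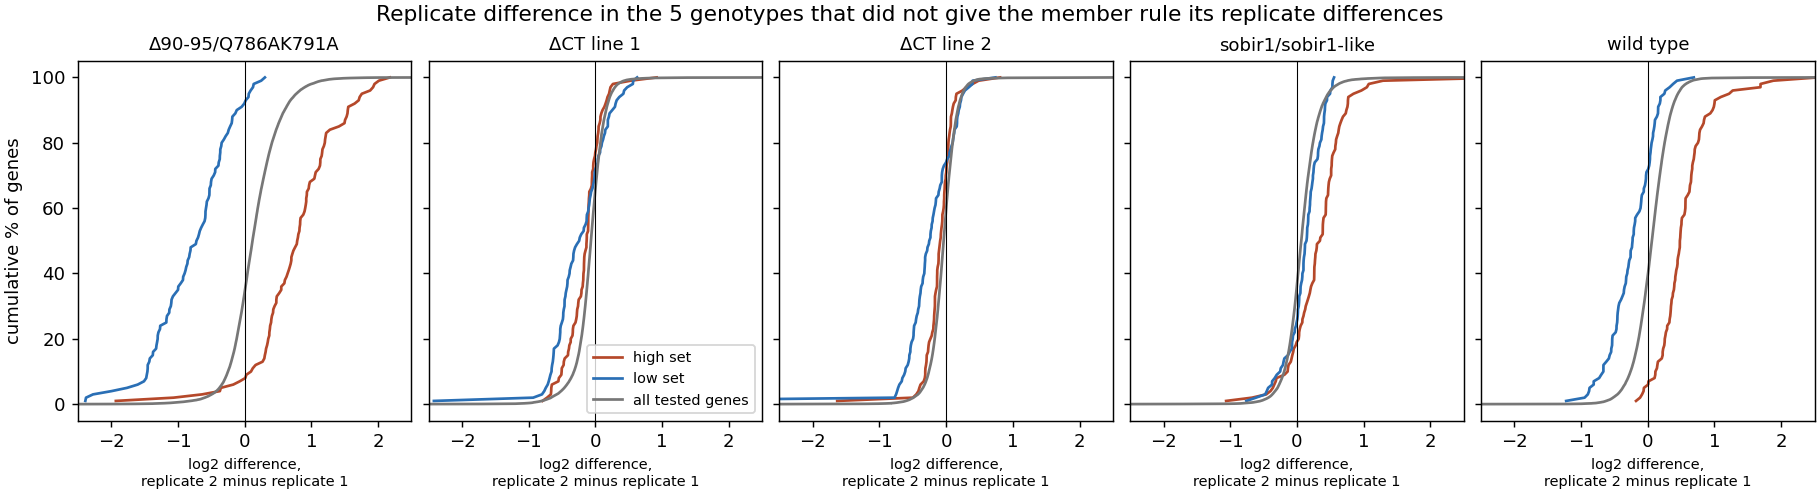
Cumulative percentage of genes (vertical axis) by log2 difference of replicate 2 minus replicate 1 over both treatments (horizontal axis, log2 units), in the 5 genotypes outside the rule. Red is the high set, blue the low set and grey all tested genes. The sets part to either side of the grey curve in the Δ90-95/Q786AK791A line (medians 0.79 and -0.71), less far in wild type (0.48 and -0.23), and both medians are negative in the ΔCT lines.

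A single replicate term over all 20 libraries asked whether the number itself went with the genes. Limma called 0 of 200 members and 1 of 36777 tested genes (0.00272% higher). At an unadjusted p under 0.05 were 51 high-set and 43 low-set genes, and 5548 of all tested genes. The median difference was 0.28 in the high set and -0.28 in the low set, against 0.03 over all. The estimate was positive for 85 high-set and 9 low-set genes, so most members shared the direction of their set. The share of positive estimates over all tested genes is not given. The 20 libraries include the construct line in which the split recurred. This term therefore cannot separate a direction common to the genotypes from the split of that line. A common direction was neither shown nor excluded at this spread.

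The second comparison set mock-treated lines against mock-treated wild type, which all 4 comparisons share. The spread of these tests came from 20 libraries that include the Δ90-95/Q786AK791A line, where 97 members were called between replicates, against 11.3% of all tested genes. That split widens the SE of members more often than that of other genes. Member counts are therefore not strictly comparable with the shares over all tested genes. In ΔCT line 1, 49 high-set genes were higher and 0 lower, and 39 low-set genes were lower and 4 higher (limma on the 20 libraries, adjusted p under 0.05), against 13.9% higher, 10.3% lower and 24.2% either way over all tested genes. The median log2 difference was 1.08 in the high set and -0.95 in the low set, against 0.09 over all. In ΔCT line 2, 47 high-set genes were higher and 0 lower, and 19 low-set genes were lower and 1 higher, against 10.4% higher, 5.02% lower and 15.4% either way over all. Its medians were 1.11 and -0.78, against 0.12. In the Δ90-95/Q786AK791A line 19 high-set genes were higher and 1 lower, and 19 low-set genes were lower and 3 higher, against 8.14%, 8.8% and 16.9% over all. Its medians were 0.65 and -0.76, against 0.01. In sobir1/sobir1-like limma called 0 members, against 0.019% higher, 0.0272% lower and 0.0462% either way over all tested genes. At an unadjusted p under 0.05 were 1 high-set gene, 13 low-set genes and 2141 of all tested genes. Its medians were 0.08 and -0.09.

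**Figure D5:**
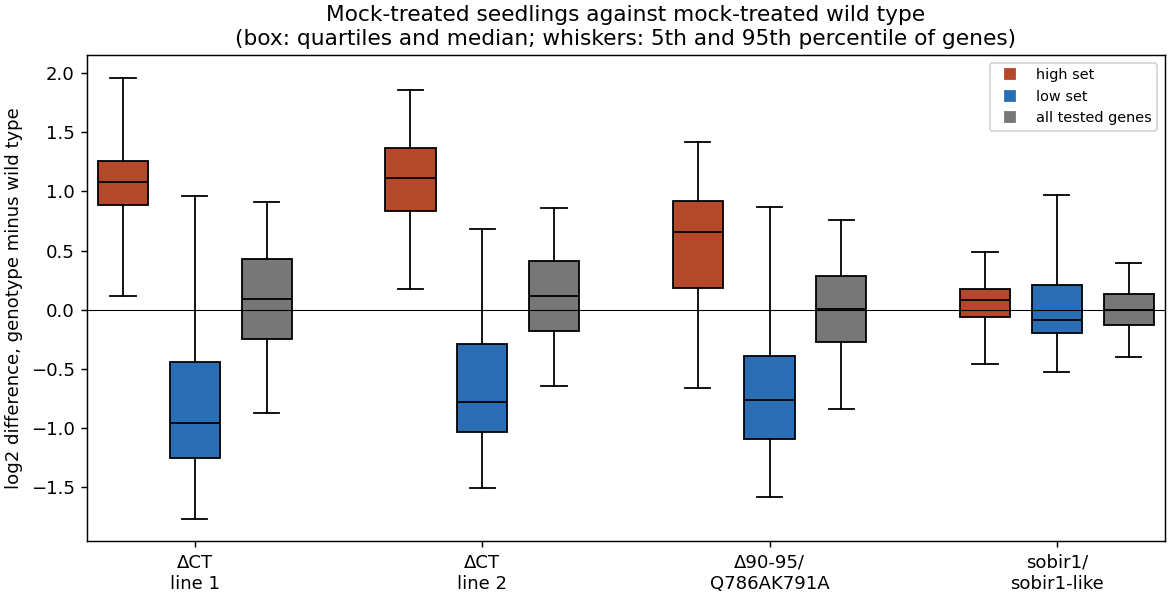
Log2 difference of mock-treated libraries of each genotype minus mock-treated wild type (vertical axis, log2 units), for the high set (red), the low set (blue) and all tested genes (grey). Boxes give quartiles and the median over genes, whiskers the 5th and 95th percentile. The high-set medians are 1.08 and 1.11 in the ΔCT lines and 0.65 in the Δ90-95/Q786AK791A line, and 0.08 in sobir1/sobir1-like.

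The high-set gene with the smallest adjusted p in both ΔCT lines was Niben101Scf05692g00006. It held 14.7 ± 0.157 TPM in ΔCT line 1 and 16.0 ± 0.719 TPM in ΔCT line 2, against 3.03 ± 0.260 TPM in wild type (mock, SD, n = 2 each). The log2 differences were 1.96 (limma adjusted p = 0.000493) and 2.08 (adjusted p = 0.000370), with an SE of 0.22. In rxeg1, the parent genotype, its mock libraries held 12.3 TPM in replicate 2 and 2.69 TPM in replicate 1, so the ΔCT libraries lay nearer the parental replicate 2. Niben101Scf17749g00008 led the Δ90-95/Q786AK791A line, where mock replicates 2 and 1 held 12.6 and 7.35 TPM, against 2.19 and 2.09 TPM in mock-treated wild type. The log2 difference was 1.76 with an SE of 0.24 (limma adjusted p = 0.00118). Niben101Scf12307g01004 led the low set in all 3 lines. It held 95.4 ± 0.558 TPM in ΔCT line 1, 83.3 ± 23.5 TPM in ΔCT line 2 and 128 ± 13.9 TPM in the Δ90-95/Q786AK791A line, against 249 ± 7.06 TPM in wild type (mock, SD, n = 2 each). The log2 level fell by 1.37 in ΔCT line 1 (limma adjusted p = 0.000493), by 1.60 in ΔCT line 2 (adjusted p = 0.000326) and by 0.95 in the Δ90-95/Q786AK791A line (adjusted p = 0.00261), with an SE of 0.17 for all 3.

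The replicates of the Δ90-95/Q786AK791A line differed by less in these 3 genes than in the median member of their set, and limma called none of them. The test that picked the 3 genes counts these replicate differences in its spread. Choice by smallest adjusted p thus favours genes with a small split in this line, and the comparison is a description only. Niben101Scf05692g00006 held 7.55 and 13.9 TPM in its replicate 2 (XEG1 and mock), against 7.04 and 6.72 TPM in replicate 1, which did not overlap (log2 difference 0.52, limma adjusted p = 0.103). Niben101Scf17749g00008 held 7.57 and 12.6 TPM in replicate 2, against 14.4 and 7.35 TPM in replicate 1, and Niben101Scf12307g01004 held 163 and 118 TPM, against 148.8 and 138.3 TPM. The replicates of these last genes overlapped, and the log2 differences were -0.07 (limma adjusted p = 0.908) and -0.04 (adjusted p = 0.921).

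A few members went against their set, and are named after their values were seen. In ΔCT line 1 the low-set genes higher than in wild type were Niben101Scf03455g01006 (log2 difference 0.96), Niben101Scf06413g02011 (1.15), Niben101Scf04714g00004 (1.12) and Niben101Scf02351g07005 (1.19). Niben101Scf02351g07005 was also the one in ΔCT line 2 (1.21), and the other three were those of the Δ90-95/Q786AK791A line (0.99, 1.08 and 1.498). Niben101Scf04714g00004 held 91.8 and 98.2 TPM in mock replicates 2 and 1 of that line, against 22.6 and 48.0 TPM in wild type, groups that did not overlap. The high-set gene lower in that line was Niben101Scf11552g02001, with 1.82 and 0.706 TPM, against 4.82 and 3.93 TPM in wild type (log2 difference -1.29, limma adjusted p = 0.0246).

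The counts moved with single libraries. Shares over all tested genes are not given for the fits without 1 library, which leave 1 library in a group. Those counts therefore do not show whether members were called more often than other genes. The mock replicates of wild type had scores of -1.71 and -2.74. Members called in ΔCT line 1 numbered 92 with all libraries, 21 without wild-type mock replicate 1, 43 without mock replicate 1 of the line and 28 without its replicate 2. In ΔCT line 2, with 67, the numbers were 9, 29 and 7. In the Δ90-95/Q786AK791A line, with 42, they were 8, 65 and 5. Without wild-type mock replicate 2 they were 83, 73 and 53 in the 3 lines. Median-ratio scaling gave high-set counts of 50 and 47 in the ΔCT lines and 28 in the Δ90-95/Q786AK791A line, with 46, 23 and 18 low-set genes lower. The low-set genes called higher numbered 0, 0 and 1 with it, so most of those calls depend on the scaling. Over all tested genes it turned the higher share of calls to 41.5% in ΔCT line 1 and 39.4% in ΔCT line 2, against 57.4% and 67.4% as deposited. The scaled fit called 3062 of 36777 tested genes higher and 3958 lower for the Δ90-95/Q786AK791A line. ΔCT line 1 had 4266 tested genes higher and 6003 lower, and ΔCT line 2 had 2722 and 4184.

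The contrast can be read over whole genotypes without a test. All 8 ΔCT libraries lay above all 8 libraries of sobir1/sobir1-like and wild type for 69 of 100 high-set genes, against 17.1% of tested genes. They lay below all of those for 34 of 100 low-set genes, against 1.71% of tested genes. With median-ratio scaling the counts were 54 against 8.48%, and 59 against 8.33%. The median tested gene held 8.21 to 9.49 TPM in the ΔCT lines, 7.74 to 8.50 TPM in sobir1/sobir1-like and 6.16 to 8.60 TPM in wild type. Genotype and the state of its libraries cannot be told apart here, since no ΔCT library had a low score and no sobir1/sobir1-like or wild-type library a high one.

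The last comparison was XEG1 against mock within the lines. Limma called 0 of 200 members in sobir1/sobir1-like, in ΔCT line 1, in ΔCT line 2 and in the Δ90-95/Q786AK791A line. Over all tested genes 0.00272%, 0.00816%, 0.0408% and 0.0517% were called either way, nearly all of them higher (0.0489% in the last line). In sobir1/sobir1-like 3 high-set and 3 low-set genes had an unadjusted p under 0.05, of 815 tested genes. ΔCT line 1 had 2 and 0 of 716, ΔCT line 2 had 2 and 1 of 1817, and the Δ90-95/Q786AK791A line had 3 and 4 of 1617. Taking the genotypes in that order, the high-set median was -0.10, 0.11, -0.04 and -0.04 log2 units, and the low-set median 0.06, 0.10, -0.14 and 0.04. The median SE of a member's difference was 0.37 log2 units in the high set and 0.36 in the low set, which limits what these comparisons could show. In the genotypes that chose the genes, the score averaged -1.57 ± 1.91 after XEG1 and -1.51 ± 1.98 under mock in rxeg1, and -1.25 ± 1.77 and -1.81 ± 2.08 in the Δ90-95/Δ786-792 line (SD, n = 2 each). In wild type, where the rule caps the response, it averaged -2.21 ± 0.37 after XEG1 and -2.23 ± 0.73 under mock. Within each of these genotypes the replicates stood further apart than the treatment means.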

How the data were processed

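For each library the authors deposited TPM values of 59814 genes, which were checked to sum to 1000000. The submitters' processing notes name HISAT2 2.0.4. Not given in the sources used here were the build, annotation and quantifier. A combined table of the series was not used.

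Samples were grouped by titles. Members and comparisons were chosen with earlier results of these data known, and the replicate terms by genotype after seeing the scores. Tests used limma 3.58.1 (R 4.3.3; trend and robust shrinkage) on log2(TPM + 1) of the 36777 genes averaging 1 TPM or more, with Benjamini-Hochberg adjustment per comparison over all of them. Fits used the 20 libraries outside rxeg1 and the Δ90-95/Δ786-792 line, whose replicate differences chose the members: 10 group means (10 residual degrees of freedom), with 1 replicate term or 5 by genotype (5 degrees). The log scale understates changes of low genes, and a listed 0 can be a failed estimate. Named genes were the first 2 of each set above 0 in all libraries and, per comparison, the called member of each set with the smallest adjusted p and groups that did not overlap. Lists by function were not used, since the files do not pair identifiers with names. Alternatives were a pseudocount of 0.1, no filter, median-ratio scaling, all 28 libraries, a replicate block, 50 or 200 members per set, and leaving out libraries. The test was also run on simulated data with independent noise for each gene, which lacks the split shared by the members, so it does not vouch for these counts.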

Additional observations from a re-analysis of the deposited data

Results flagged for a closer look

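The replicate difference was larger in the Δ90-95/Q786AK791A line than in the mean of both ΔCT lines for members of both sets. Limma, testing the difference itself, called 61 of 200 members, 49 high-set genes with a more positive and 12 low-set genes with a more negative difference, against 5.99% and 0.163% of all tested genes. The test was added after the data were seen. The median difference of differences was 0.92 in the high set and -0.56 in the low set, against 0.18 over all tested genes. With median-ratio scaling 733 of 36777 tested genes were called more positive and 115 more negative. Calls over all tested genes are not given for the fits that leave out 1 treatment. With median-ratio scaling 39 members were called, and with 1 treatment of 1 line left out between 4 and 65. The count was 4 without the XEG1 libraries of the Δ90-95/Q786AK791A line and 38 without its mock libraries.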

How the results depend on the processing

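Fitting all 28 libraries lets the replicate differences that chose the members into the spread: the median high-set SE of a mock difference was 0.63 log2 units against 0.37 with 20 libraries. Called members then numbered 5 in ΔCT line 1, 2 in ΔCT line 2 and 4 in the Δ90-95/Q786AK791A line against wild type, and 139 for the single replicate term, whose estimate then includes the rule's own libraries. For the Δ90-95/Q786AK791A line that fit called 1576 of 36777 tested genes higher and 2234 lower. The counts for ΔCT line 1 were 2336 and 2634, and those for ΔCT line 2 were 996 and 656. Against wild type, members were thus called less often than tested genes as a whole with all 28 libraries. The single replicate term called 7645 tested genes higher and 1192 lower. A replicate block was also fitted, for a number that the labels tie to no shared batch. It called 119 and 86 members in the ΔCT lines, 66 in the Δ90-95/Q786AK791A line and 1 in sobir1/sobir1-like. Tested genes called higher and lower then numbered 5990 and 4238 in ΔCT line 1, and 4736 and 2256 in ΔCT line 2. They numbered 3364 and 3607 in the Δ90-95/Q786AK791A line, and 9 and 9 in sobir1/sobir1-like. For XEG1 the block called 0 members in each line, and at most 36 tested genes higher and 25 lower. Replicate differences under mock and under XEG1 correlated across genes at 0.73 in rxeg1, 0.54 in the Δ90-95/Δ786-792 line, 0.50 in the Δ90-95/Q786AK791A line, 0.35 in sobir1/sobir1-like, 0.17 in wild type, -0.02 in ΔCT line 1 and -0.003 in ΔCT line 2. A pseudocount of 0.1 called 1 member for XEG1 in sobir1/sobir1-like, and the wild-type replicate difference called 0 without the filter and 0 with scaling, which also gave 39 for the difference between the Δ90-95/Q786AK791A and ΔCT lines; the cause was not tested. With 1 library left out the mock counts ranged from 21 to 83 in ΔCT line 1, 7 to 73 in ΔCT line 2, 5 to 65 in the Δ90-95/Q786AK791A line and 0 to 1 in sobir1/sobir1-like. XEG1 counts ranged from 0 to 1 in ΔCT line 2. The difference between the Δ90-95/Q786AK791A and ΔCT lines ranged from 4 to 65 without 1 treatment of 1 line. Without 1 treatment, replicate counts ranged from 23 to 57 in the Δ90-95/Q786AK791A line and 0 to 3 in ΔCT line 1. Shares over all tested genes are not given for these fits with libraries left out. The widest gap in the score was 1.04. It lay between 0.79 and 1.24 with 50 or 200 members, a pseudocount of 0.1 or scaling. It parted the same libraries each time. Under the rule with a pseudocount of 0.1, 38 high-set and 81 low-set members were shared, and with scaling 84 and 85. Genes whose calls ended with all 28 libraries included Niben101Scf05692g00006 (ΔCT line 2), Niben101Scf17749g00008 and Niben101Scf12307g01004 (Δ90-95/Q786AK791A line). TPM keeps no depth, so no depth limit can be given.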
